A study of Mus musculus with 38 samples.

Results

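Mpo, Elane, Prtn3, Ctsg and Ms4a3 belong to the earliest neutrophil programme, in which the primary (azurophil) granules are filled. The 5 genes were found by matching the mouse symbols to the Ensembl identifiers of the deposited tables, and all 5 were present among 47729 genes in the whole marrow tables and 46679 genes in the precursor tables. All 5 passed the filter on low counts in every comparison reported here. Mpo encodes myeloperoxidase, which makes hypochlorous acid. Elane (neutrophil elastase), Prtn3 (proteinase 3) and Ctsg (cathepsin G) encode serine proteases. Ms4a3 is neither a protease nor a peroxidase: it encodes a membrane protein of the MS4A family that marks granulocyte-monocyte progenitors.

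Primary granules are made at the promyelocyte stage, and their messenger RNAs are abundant in granulocyte-monocyte progenitors and promyelocytes and decline as the secondary and tertiary granules form. In marrow these transcripts are known mainly from early granulocyte precursors, while mature neutrophils carry the proteins. The proteases are trimmed to their active form by cathepsin C, packed onto the proteoglycan serglycin, and held in check by inhibitors such as Serpinb1a and Slpi.

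In GRCm38 coordinates with the GENCODE vM21 annotation, Mpo (ENSMUSG00000009350) lies at chr11:87793581-87804413 on the plus strand. Prtn3 (ENSMUSG00000057729, chr10:79874476-79883174) and Elane (ENSMUSG00000020125, chr10:79886247-79888215) lie 3073 bases apart on the plus strand of 1 chromosome, and Cfd starts 2638 bases beyond Elane. Ctsg (ENSMUSG00000040314) lies at chr14:56099881-56102574 on the minus strand, next to other genes of the mast cell protease and granzyme cluster. Ms4a3 (ENSMUSG00000024681) lies at chr19:11629496-11640851 on the minus strand, beside Ms4a2. All 5 are protein-coding. The annotated span of Mpo overlaps Gm11505 and that of Prtn3 overlaps Plppr3, and the labels do not state whether counting used strand.

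The 250 bases before the RefSeq start of each gene were read because most of the 5 genes moved together in marrow, and 1 short motif, GGAAGT (the core bound by ETS family factors such as PU.1), was present in all of them. The 30-base windows around it are from RefSeq on GRCm38.p6, are written 5′ to 3′ on the strand of the gene, overlap no annotated exon of that gene, and carry the motif in capitals.
Mpo, chr11:87793550-87793579, plus strand: tggagagagagaGGAAGTtgcctttgtccc
Elane, chr10:79886217-79886246, plus strand: gtgtcccagggaGGAAGTagggctgtggcc
Prtn3, chr10:79879562-79879591, plus strand: aaactggaaggaGGAAGTgggacccacagc
Ctsg, chr14:56102762-56102791, minus strand: agaggaagaaaaGGAAGTagtcacctgttt
Ms4a3, chr19:11640889-11640918, minus strand: tggtatacttggGGAAGTgggtgggccatt
The windows begin 234 (Mpo), 95 (Elane), 105 (Prtn3), 217 (Ctsg) and 67 (Ms4a3) bases before the RefSeq start. That of Prtn3 lies inside the GENCODE span of the gene given above. GGAAGT on either strand occurred in 19.7% of 32851 RefSeq promoters of the same length. The longer GAGGAAGT, which contains it, occurred in Mpo, Elane and Prtn3 and in 2.44% of promoters. AACGG, the core of MYB sites, occurred in Elane and Prtn3 (14.5% of promoters), TATAA in Elane, Prtn3 and Ctsg (22.8%), TGTGGT, the core of RUNX sites, in Ctsg (14%), and TTGCNNAA, a C/EBP type motif, in none of the 5 (9.56%). These 6 motifs were chosen after the sequences were seen, and a match is a description of the letters and not a binding site. In Elane and Prtn3 the 30-base window around AACGG and TATAA overlaps 1 annotated exon of that gene.

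The mice are described as C57BL/6 females of 6 to 7 weeks. They received zoledronic acid (ZA, 100 µg/kg intraperitoneally), recombinant human G-CSF (50 µg/kg daily for 3 days), both, or neither. ZA is a bisphosphonate that inhibits osteoclasts, and G-CSF is the growth factor that drives granulocyte production. Where both were given, G-CSF was begun 2 days after ZA. The whole marrow tables hold 2 untreated, 3 G-CSF, 2 ZA and 2 combined libraries. The precursor tables hold 2 sequencing runs of osteoclast precursors, sorted as CD115+ cells after depletion with antibodies to CD3, CD11b, CD45R, TER119 and Ly-6G/Ly-6C, together with whole marrow. Run 1 has 1 untreated, 3 G-CSF, 1 ZA and 3 combined precursor libraries and 1 marrow library each for untreated, G-CSF and ZA. The labels number replicates without saying that they are separate mice, so the p-values speak only of the scatter among these libraries, which may be technical.

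Depth ran from 6.24 to 16.2 M estimated counts over the 9 whole marrow libraries and from 21.0 to 33.2 M over the 8 run 1 precursor libraries. The 3 run 1 marrow libraries matched whole marrow replicate 2 of the same treatment, with the same totals and 99.4 to 99.5% of genes at or above 1 TPM within 1%, so they are the same data and give no independent check. Run 2 (18 libraries) was kept out of the main comparisons: of 9 samples labelled as sequenced in both runs, 0 correlated best with their own run 2 library, and 5 correlated best with a library of the other tissue label. Small structural RNAs took 40.0% of TPM in untreated replicate 1 and 7.96 to 15.2% in the other 8 whole marrow libraries, which lowers the TPM of every other gene there. In run 1 they took 18.9 to 43.7% in the 8 precursor libraries, above the 7.97 to 15.2% of the 3 marrow libraries, with 22.6 to 43.7% in the combined and 18.9 to 29.0% in the G-CSF precursors, and their part in the TPM values was not tested. A further set of genes separated the whole marrow libraries without overlap by whether G-CSF had been given: Eno1b was at 58.5 to 79.8 TPM in the 5 libraries given G-CSF and 0 to 0.623 TPM in the other 4, Ifi202b at 2.51 to 11.2 TPM against 0, and Vill at 0 to 0.226 TPM against 11.6 to 46.4 TPM. The run 1 precursors, treated or not, all had the pattern of the marrow without G-CSF, with Eno1b at 0 to 0.45 TPM and Vill at 45.7 to 95.5 TPM. As background, Ifi202b is among the genes known to be expressed in some inbred mouse strains and not in others. In whole marrow, G-CSF and the genetic background of the mice therefore cannot be told apart, and every G-CSF difference in marrow given here carries that limit. This split stands beside a description that gives 1 strain for all mice, and the strain of each library was not tested.

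In whole marrow the peroxidase and the proteases were among the more abundant transcripts. Per transcript length (TPM), Mpo ranked between 90 and 221 among protein-coding genes over the 9 libraries, Prtn3 between 75 and 239, Elane between 132 and 266, Ctsg between 338 and 687, and Ms4a3 between 652 and 1184. In untreated marrow the mean level was 177 ± 64.1 TPM for Mpo, 177 ± 51.6 for Prtn3, 155 ± 60.5 for Elane, 57.3 ± 23.1 for Ctsg and 36.5 ± 10.9 for Ms4a3 (SD, n = 2). Mpo, Prtn3 and Elane did not differ from each other beyond that spread, and neither did Ctsg from Ms4a3, but the genes share this spread in part: within each of the 2 libraries Elane was below Mpo and Prtn3, and Ms4a3 below Ctsg. In the G-CSF group the means were 650 ± 76.8 TPM for Prtn3, 639 ± 41.6 for Mpo, 459 ± 7.49 for Elane, 174 ± 14.5 for Ctsg and 86.7 ± 8.77 for Ms4a3 (SD, n = 3), and there Mpo and Prtn3 were the neighbours that did not differ beyond their spread.

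**Figure D1:**
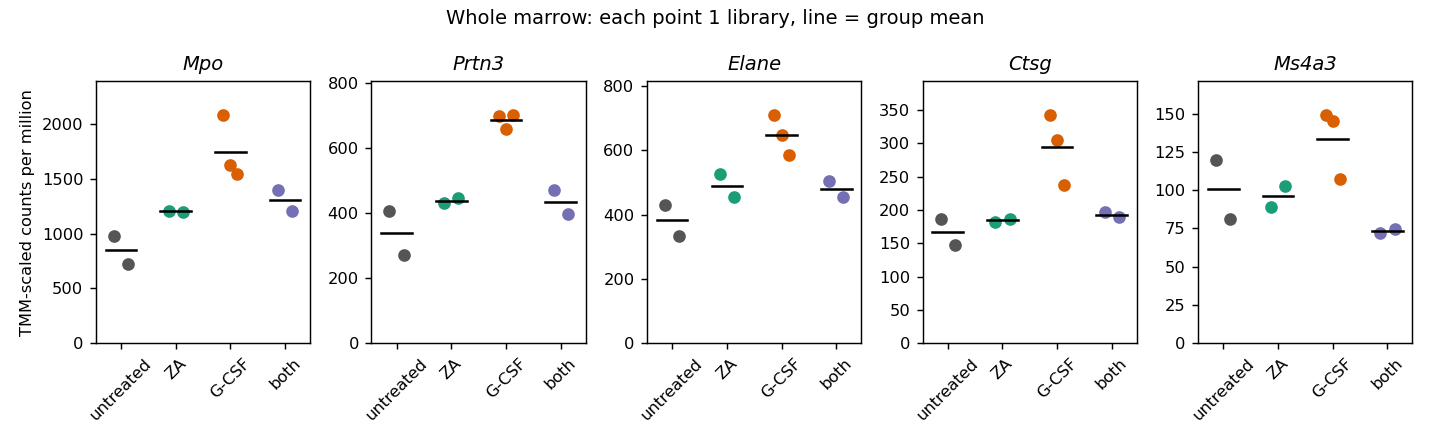
TMM-scaled CPM (counts scaled to a common library size) (linear axis from 0) of the 5 genes in the 9 whole marrow libraries, with 1 point a library and a line at each group mean. The 3 G-CSF libraries lie above all other libraries for Mpo, Prtn3, Elane and Ctsg, and for Ms4a3 their lowest value, 107, lies below the 120 of untreated replicate 1.

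Mpo, Prtn3, Elane and Ctsg were higher in the marrow of mice given G-CSF than in untreated marrow, by 1.69-fold to 2.06-fold, and Ms4a3 did not pass the test. Levels here are in CPM, counts scaled to a common library size after TMM scaling, which sets each library to the bulk of its genes. In bulk marrow, more cells of a type and more RNA per cell cannot be told apart. Where groups are said not to overlap, here and below, the share of all genes that did so was not counted.

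Mpo was at 977 and 726 CPM in the 2 untreated libraries and at 2081, 1627 and 1541 in the 3 G-CSF libraries. The groups did not overlap, and the difference was 1.04 ± 0.19 on the log2 scale (SE, adjusted p = 0.00966, 2.06-fold). Among the proteases, Prtn3 was at 405 and 271 without treatment and at 699, 659 and 700 with G-CSF, again without overlap (log2 difference 1.02 ± 0.18, adjusted p = 0.00869). For both genes every G-CSF library lay above every untreated one. Elane was at 431 and 334 against 709, 646 and 586 (0.76 ± 0.17, adjusted p = 0.0189). Ctsg was at 187 and 148 against 342, 305 and 237 (0.81 ± 0.18, adjusted p = 0.0214). Neither Elane nor Ctsg overlapped between the groups. Ms4a3 was at 120 and 81.3 against 149, 145 and 107, and its groups overlapped (0.41 ± 0.21, adjusted p = 0.232).

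Of the 14737 genes tested, 11.8% were called in this comparison, 4.93% higher and 6.91% lower, against 4 of the 5 genes called higher. The median difference of the 5 was 0.81, beside 0.01 over all genes. The call rested in part on single libraries: without G-CSF replicate 1 or without G-CSF replicate 2, 2 of the 5 were called. With any 1 library left out, the difference ran from 0.84 to 1.28 for Mpo and from 0.76 to 1.35 for Prtn3. It ran from 0.59 to 0.96 for Elane, from 0.66 to 1.00 for Ctsg and from 0.15 to 0.73 for Ms4a3. The number of all genes called was lower in each of these fits too. On the TPM scale, tested with limma on log2(TPM + 1) here and below, where the median of all genes moved by 0.52, all 5 were called higher with a median of 1.65, and 19.9% of genes were called higher and 1.14% lower.

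Other cell types moved with these genes. The 12 erythroid markers summed to 304535 to 417623 CPM in untreated marrow and 153260 to 204071 with G-CSF, and 6 of the 12 were lower (median −0.69). The 12 monocyte markers summed to 1775 to 2078 and 1011 to 1058, and 5 of the 12 were lower (median −0.55), among them Csf1r (−0.63 ± 0.16, adjusted p = 0.0313), the receptor known as CD115. No listed marker of either type was at 0 in any whole marrow library. In TPM, 1 of the 12 erythroid markers was lower and 2 higher, 1 monocyte marker was lower and 1 higher, and Csf1r and Hba-a2 changed sign. The part of these shifts in the granule gene result was not tested.

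Genes of the later granules did not move as a block. Of 13 secondary and tertiary granule genes, Ly6g was higher (1.12 ± 0.15, adjusted p = 0.00232), and Chil3 (−1.87 ± 0.20, adjusted p = 0.000489) and Itgb2l (−3.25 ± 0.25, adjusted p = 7.76e-05) were lower, with a median of 0.19. The summed level of these 13 genes, 19688 to 19758 CPM in untreated marrow, was 19696 to 21080 with G-CSF. None of 10 mature neutrophil genes passed the edgeR test (median −0.01). By TPM, 7 of the 13 later granule genes were higher and 2 lower, with a median of 1.05, and 2 of the 10 mature neutrophil genes were higher.

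The genes listed for granule maturation and packing, which also include granule proteins themselves, mostly did not pass the test. Of 14, 2 were higher: Nkg7, a granule membrane protein (1.14 ± 0.21, adjusted p = 0.00935), and Lyz1, a lysozyme (7.55 ± 0.28, adjusted p = 1.31e-06). Lyz1 had the same split as the genes named above, at 332 to 445 TPM in the libraries given G-CSF and 0.833 to 2.19 TPM in the others. Ctsc, which activates the proteases, was at 107 to 116 CPM in untreated marrow and 62.5 to 96.2 with G-CSF (−0.46 ± 0.20, adjusted p = 0.161). Srgn, the serglycin core protein, was at 256 to 286 and 283 to 347 (0.26 ± 0.16, adjusted p = 0.308). Prss57, a further serine protease of these granules on the chromosome of Elane, was at 28.5 to 38.7 and 34 to 42.8 (0.22 ± 0.19, adjusted p = 0.473). The median of the list was −0.04. With TPM values, 6 of the 14 were called higher.

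None of 7 tested protease inhibitors was called by edgeR. Serpinb1a, which inhibits elastase, proteinase 3 and cathepsin G, was at 212 to 230 CPM untreated and 269 to 313 with G-CSF, without overlap, but its difference missed the threshold (0.39 ± 0.13, adjusted p = 0.0831). Slpi, the secretory leukocyte protease inhibitor, was at 176 to 200 and 150 to 243 (0.04 ± 0.20, adjusted p = 0.915). On the TPM scale 3 inhibitors were called higher.

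Among 13 regulators, 3 were higher and 2 were lower. Cebpd (1.08 ± 0.18, adjusted p = 0.00645) and Cebpb (1.01 ± 0.25, adjusted p = 0.0297), transcription factors of the C/EBP family, were higher, as was Gfi1 (0.81 ± 0.19, adjusted p = 0.0244), a repressor needed for neutrophil formation. Irf8 (−1.40 ± 0.23, adjusted p = 0.00528), which directs progenitors to monocytes, and Runx1 (−1.55 ± 0.31, adjusted p = 0.0137) were lower. The C/EBP factors of the promyelocyte and its successors did not pass: Cebpa was at 0.10 ± 0.19 (adjusted p = 0.763) and Cebpe at 0.00 ± 0.21 (adjusted p = 0.995). Csf3r, the G-CSF receptor, was at 142 to 205 CPM untreated and 165 to 190 with G-CSF. In TPM, 5 regulators were called higher and none lower. Irf8 and Runx1 kept their sign on that scale, at −0.50 and −0.57.

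Of 12 tested chromosome neighbours of the 5 genes, 1 was called by edgeR, and it was lower: Ms4a6b (−1.65 ± 0.36, adjusted p = 0.0202), a paralog near Ms4a3 expressed in monocytes and lymphocytes. Nearest to Elane, Cfd, which encodes complement factor D, was at 0.818 to 2.72 CPM untreated and 6.84 to 27.1 with G-CSF, without overlap (3.01 ± 0.92, adjusted p = 0.0683). Mcpt8, a basophil protease next to Ctsg, was at 54.1 to 56.6 and 84.3 to 87.5, also without overlap (0.63 ± 0.20, adjusted p = 0.0693). Neighbours were not tested against the 5 genes. By TPM, Ms4a6b was at −0.80 and was not called, and 4 of the 12 were called higher.

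ZA alone gave values between those of untreated and G-CSF marrow for Mpo, Prtn3 and Elane, and no gene of the 5 passed the test. Mpo was at 1208 and 1199 CPM with ZA, above both untreated libraries (0.50 ± 0.21, adjusted p = 0.502). Prtn3 was at 430 and 446 (0.37 ± 0.20, adjusted p = 0.561) and Elane at 526 and 454 (0.36 ± 0.18, adjusted p = 0.548), both also above the untreated pair. Ctsg, at 182 and 187, and Ms4a3, at 88.8 and 103, overlapped with untreated marrow. In this comparison 0.0339% of genes were called. The count of 0 for the 5 genes became 1 at an unadjusted p under 0.05 (Mpo), where 9.47% of all genes were, and was 0 with DESeq2, which called 129 genes.

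G-CSF against ZA gave 0 called of the 5 genes with edgeR, where 5.06% of genes were called. Ctsg (0.67 ± 0.18, adjusted p = 0.0716) and Prtn3 (0.65 ± 0.18, adjusted p = 0.0812) were nearest to the threshold. All 5 had an unadjusted p under 0.05, as did 18.1% of all genes, and DESeq2 called 2 of the 5 and 1135 genes. The groups of Mpo, Prtn3, Elane, Ctsg and Ms4a3 did not overlap, with G-CSF above ZA. For Ms4a3 the nearest libraries were at 107 and 103 CPM. The share of all genes that separate in this way was not counted.

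Marrow given both agents held the 5 genes at levels nearer to ZA than to G-CSF. Mpo was at 1402 and 1205 CPM, Prtn3 at 471 and 398, and Elane at 503 and 455. Ctsg was at 197 and 189, and Ms4a3 was at 71.8 and 74.8, below all other whole marrow libraries. The order depended on the scale: in TPM the combined mean of Mpo, 607, lay nearer to the 639 of G-CSF than to the 334 of ZA, as did that of Prtn3 (520, beside 650 and 313), Elane (433, beside 459 and 263) and Ctsg (146, beside 174 and 83.5). That of Ms4a3, 60.9, lay nearer to the 47.6 of ZA than to the 86.7 of G-CSF. In CPM, all combined libraries were below all G-CSF libraries for each of the 5 genes. How many of all genes separate in this way was not counted. The differences from G-CSF alone were −0.42 ± 0.19 for Mpo (adjusted p = 0.480), −0.66 ± 0.18 for Prtn3 (adjusted p = 0.305), −0.43 ± 0.16 for Elane (adjusted p = 0.422), −0.61 ± 0.18 for Ctsg (adjusted p = 0.331) and −0.87 ± 0.21 for Ms4a3 (adjusted p = 0.262). With edgeR 0 of the 5 were called, where 0.00679% of genes were called. All 5 had an unadjusted p under 0.05, as did 10.4% of all genes. DESeq2 called 2 of the 5, both lower, and 207 genes in all. With TPM values, the differences of the 5 genes were −0.50 to −0.07, where the median of all genes was 0.22.

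Against untreated marrow, 0 of the 5 genes were called with both agents, where 7.72% of genes were called, 3.17% higher and 4.55% lower. Mpo differed by 0.62 ± 0.21 (adjusted p = 0.104), Elane by 0.33 ± 0.18 (adjusted p = 0.289), Prtn3 by 0.36 ± 0.20 (adjusted p = 0.285), Ctsg by 0.20 ± 0.20 (adjusted p = 0.568) and Ms4a3 by −0.46 ± 0.23 (adjusted p = 0.252). At an unadjusted p under 0.05 the count was 1 (Mpo), where 24.8% of all genes were, and DESeq2 called 1 of the 5 and 1758 genes. On the TPM scale 4 of the 5 (all but Ms4a3) were called higher, where 40.4% of genes were called higher, 1.10% lower, and the median of all genes was 0.79. Of 13 later granule genes 3 were lower in this comparison, among them Camp, a cathelicidin (−1.19 ± 0.25, adjusted p = 0.0223), and of 10 mature neutrophil genes 4 were lower, among them S100a8, a subunit of calprotectin (−1.49 ± 0.28, adjusted p = 0.0141). In TPM, neither Camp (0.02) nor S100a8 (−0.29) was called. Myb, a transcription factor of progenitors, was higher (0.72 ± 0.15, adjusted p = 0.0220), also in TPM (1.81, adjusted p = 0.00644). Against ZA alone, 0 of the 5 were called by edgeR, where 4.33% of genes were called. At an unadjusted p under 0.05 the count was 0, where 17.3% of all genes were. DESeq2 called 0 of the 5 and 1024 genes. The differences from ZA ran from −0.39 for Ms4a3 to 0.12 for Mpo.

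The test of whether G-CSF acted differently with and without ZA gave negative values for all 5 genes, from −1.03 ± 0.27 for Prtn3 (adjusted p = 0.239) to −0.75 ± 0.27 for Ctsg (adjusted p = 0.351). None was called, where 0.00679% of genes were called. All 5 had an unadjusted p under 0.05, as did 11.8% of all genes, and DESeq2 called 1 of the 5 and 257 genes. All whole marrow comparisons draw on the same 9 libraries, so their values are not independent of each other.

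**Figure D2:**
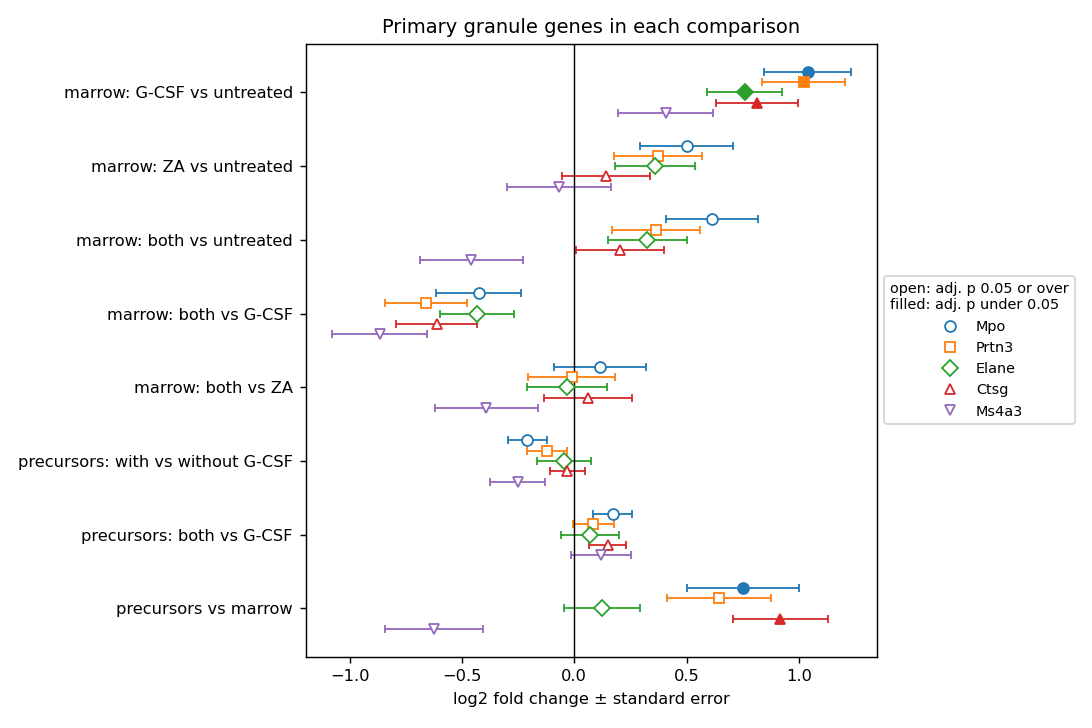
Log2 fold change (x axis) with its standard error for the 5 genes in 8 comparisons, from edgeR's quasi-likelihood fits, with filled symbols where the adjusted p was under 0.05. Filled symbols are Mpo, Prtn3, Elane and Ctsg for G-CSF against untreated marrow and Mpo and Ctsg for precursors against marrow, and the values of the 2 precursor treatment comparisons lie between −0.25 and 0.17.

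In the sorted CD115+ precursors of run 1 the peroxidase and 3 proteases were abundant whatever the treatment. Over the 8 libraries Mpo averaged 1076 ± 216 TPM, Prtn3 989 ± 205, Elane 583 ± 139, Ctsg 365 ± 67.0 and Ms4a3 65.8 ± 16.2 (SD, n = 8). Mpo and Prtn3 did not differ beyond their spread between libraries, which the genes share in part, and the other neighbours in the order did. Within libraries Mpo was above Prtn3 in 7 of 8 and equal to it, to 3 digits, in the other. Mpo ranked 41 to 82 among protein-coding genes, Prtn3 47 to 81, Elane 103 to 150 and Ctsg 178 to 232, while Ms4a3 ranked 998 to 1480.

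Monocyte markers were in sum higher in the precursors than in marrow, and transcripts of later neutrophil stages were few. Stem and early progenitor markers were also listed but are not reported here, so these values do not place the cells by stage. The 12 monocyte markers summed to 7975 to 9445 CPM in the 8 precursor libraries and 1288 to 2597 in the 3 marrow libraries of run 1. CPM of run 1 libraries are scaled within run 1, so they cannot be set against the whole marrow CPM given above. Csf1r, which encodes the sorted receptor CD115, was at 405 to 475 and 93.8 to 168. The 13 later granule genes summed to 1505 to 2574 in precursors and 25819 to 31054 in marrow, and the 10 mature neutrophil genes to 889 to 1221 and 24126 to 27479. Ltf, a secondary granule protein, was at 29.8 to 108 CPM in precursors and 4639 to 6566 in marrow, low but not at 0 in any precursor library. Of 9 genes that stand for the antigens depleted before the sort, 7 were lower in precursors, Ly6g among them (−7.82 ± 0.32, adjusted p = 3.6e-06). Ly6c2, which encodes part of the Ly-6C antigen, was higher (2.60 ± 0.68, adjusted p = 0.0237), at 1567 to 2053 CPM in precursors and 79.4 to 626 in marrow.

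Compared with whole marrow within treatment, Mpo and Ctsg were higher in precursors, while Elane did not differ by the test. Of all genes tested, 41.7% were called there. The G-CSF marrow library carries the Eno1b and Vill pattern described above, and no precursor library does. Within the G-CSF group, tissue and genetic background therefore cannot be told apart. This limit holds for every comparison of precursors with G-CSF marrow given here. Mpo was at 1134, 1802 and 2538 CPM in untreated, ZA and G-CSF marrow on the run 1 scale. The whole marrow tables gave 726, 1208 and 1627 CPM for the same libraries, at equal TPM. The estimated counts of Mpo differed too, at 5419 and 4438 in the untreated library. In precursors Mpo was at 3449 untreated, 3399 with ZA and 2482, 3078 and 2841 with G-CSF. All precursor libraries but 1 were above every marrow library, the exception being G-CSF precursor replicate 1, and the difference was 0.75 ± 0.25 (adjusted p = 0.0444, 1.68-fold). Ctsg was at 190, 223 and 390 in marrow and at 530, 540, 460, 523 and 514 in precursors, without overlap (0.92 ± 0.21, adjusted p = 0.0112, 1.89-fold).

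Prtn3 was at 361, 547 and 875 in marrow and at 900, 1098, 823, 934 and 913 in precursors, with the G-CSF marrow library inside the precursor range (0.64 ± 0.23, adjusted p = 0.0567). Elane was at 447, 673 and 864 in marrow and at 720, 780, 685, 706 and 740 in precursors, so that the G-CSF marrow library was the highest (0.12 ± 0.17, adjusted p = 0.592). Ms4a3 lay the other way: 105, 110 and 187 in marrow against 94.2, 104, 72.9, 85.7 and 80.8 in precursors, all below marrow (−0.63 ± 0.22, adjusted p = 0.0520, 0.648-fold). Of the 5 genes, 2 were called, both higher, where 41.7% of 18705 genes were called, 19.3% higher and 22.4% lower. The count in either direction is near the share over all genes, so it does not set the 5 genes apart.

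The count of 2 depended on the libraries, the scale and the model. With 1 library left out the difference of Mpo ran from 0.43 (without the untreated precursor library) to 1.26 (without the G-CSF marrow library), and that of Ctsg from 0.70 to 1.38. With a replicate block 0 of the 5 and 3298 genes were called. It was 4 without the G-CSF marrow library, and 1 without the ZA marrow library, without the ZA precursor library or without G-CSF precursor replicate 2 or 3. Without either ZA library the 1 gene called was Ms4a3, lower. Without either untreated library Mpo was not called and Ms4a3 was called lower. The number of all genes called was lower in each fit with 1 library left out. DESeq2 called 4 of the 5 (3 higher and Ms4a3 lower) and 8457 of all genes. By TPM, where the median of all genes moved by 0.45, 4 were called higher, Ms4a3 changed sign to 0.25, and 49.3% of genes were called higher and 11.4% lower.

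**Figure D3:**
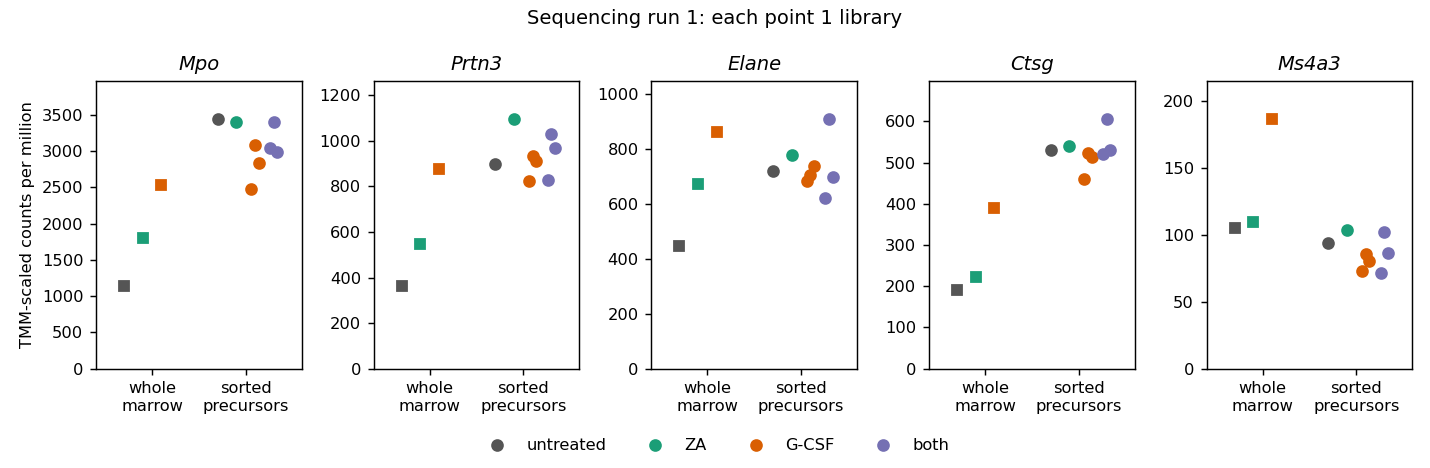
TMM-scaled CPM (linear axis from 0) of the 5 genes in the 11 run 1 libraries, squares for whole marrow and circles for sorted precursors, coloured by treatment. The 3 marrow libraries span 1134 to 2538 for Mpo whereas the 8 precursor libraries lie between 2482 and 3449, and for Ms4a3 all precursor libraries lie below all marrow libraries.

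The genes listed for granule maturation and packing split between the tissues. Ctsc was higher in precursors (1.69 ± 0.18, adjusted p = 0.000267), at 336 to 367 CPM over the 8 libraries and 72.8 to 141 in marrow. Among the other 13 packing and maturation genes, Canx, a chaperone of the endoplasmic reticulum that assists folding of myeloperoxidase (0.82 ± 0.13, adjusted p = 0.00207), Gusb (1.11 ± 0.10, adjusted p = 0.000139) and Gm2a (1.66 ± 0.12, adjusted p = 4.46e-05) were also higher. The other 7 called genes were lower on this scale, among them Srgn (−0.92 ± 0.12, adjusted p = 0.000861) and Prss57 (−1.25 ± 0.24, adjusted p = 0.00538). With TPM values, 6 of the 14 were higher and 2 lower, Srgn and Prss57 were not called, and Mgst1 changed sign.

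Of the 7 tested inhibitors, 5 were lower in precursors and none was higher. Serpinb1a was at 87.7 to 108 CPM in precursors and 265 to 400 in marrow (−1.68 ± 0.15, adjusted p = 0.000135). Slpi was at 136 to 168 and 223 to 267 (−0.68 ± 0.12, adjusted p = 0.00319). On the TPM scale 4 were lower and 1 higher, and Slpi changed sign to 0.17.

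Among the regulators, Cebpa, the C/EBP factor of granulocyte-monocyte progenitors, was at 157 to 194 CPM in precursors and 53.4 to 67.2 in marrow (1.59 ± 0.11, adjusted p = 4.03e-05). Cebpe, which acts at the later promyelocyte to myelocyte transition, was at 6.37 to 11.3 and 127 to 176 (−4.07 ± 0.17, adjusted p = 3.34e-06). Irf8 was higher in precursors (2.71 ± 0.34, adjusted p = 0.000735) and Gfi1 was lower (−1.55 ± 0.18, adjusted p = 0.000412). In all, 6 of 13 regulators were higher and 5 lower, with a median of 0.32 beside 0.06 over all genes. In TPM, 8 were higher and 3 lower. Csf3r was lower on the count scale (−0.99 ± 0.17, adjusted p = 0.00316) and at −0.13, not called, on the TPM scale.

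The neighbours of the 5 genes went both ways, 5 higher and 7 lower of 13 tested. Epx, the eosinophil peroxidase on the chromosome of Mpo, was at 0.297 to 6.21 CPM in precursors and 561 to 932 in marrow (−8.79 ± 0.43, adjusted p = 1.15e-05). Mcpt8 was at 3.86 to 7.44 and 60.7 to 108 (−3.75 ± 0.26, adjusted p = 3.94e-05). In the MS4A cluster Ms4a6c, expressed in monocytes, was higher (2.29 ± 0.14, adjusted p = 2.15e-05) and Ms4a2, the beta chain of the IgE receptor, was lower (−2.96 ± 0.32, adjusted p = 0.000328).

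**Figure D4:**
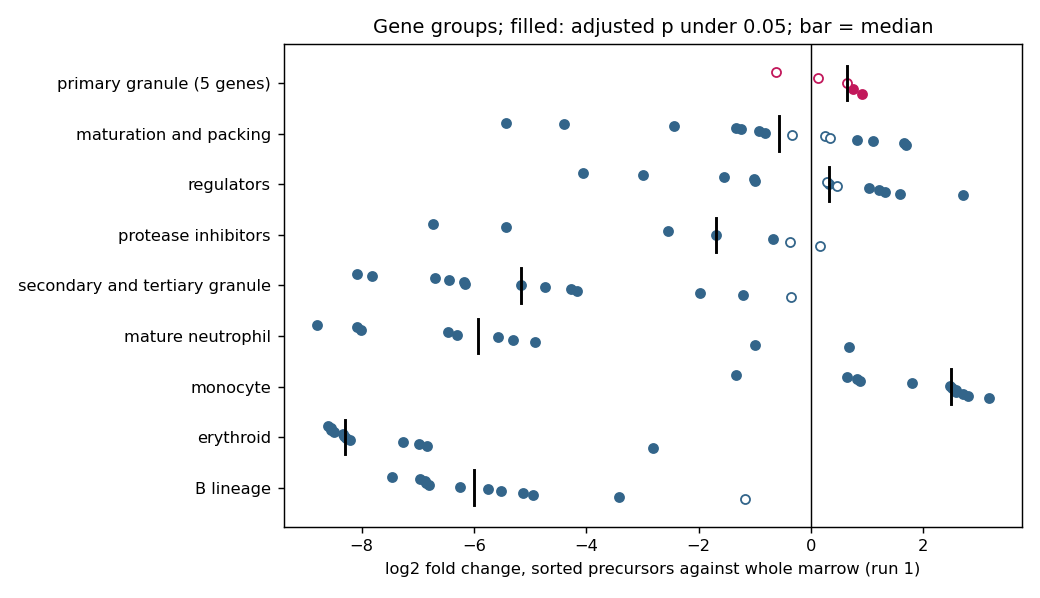
Log2 fold change of sorted precursors against whole marrow in run 1 for each tested gene of 9 lists, with filled points where the adjusted p was under 0.05 and a bar at each list's median. The 5 primary granule genes lie between −0.63 and 0.92, whereas 12 of 13 later granule genes were lower (median −5.16) and 11 of 12 monocyte genes were higher (median 2.49).

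The other lists give the setting for the members' small differences. Later granule genes were lower in 12 of 13 cases (median −5.16), with Ltf at −6.70 ± 0.24 (adjusted p = 2.23e-06), and mature neutrophil genes in 9 of 10 (median −5.94). Erythroid genes were lower in 12 of 12 (median −8.30) and B lineage genes in 11 of 12 (median −6.01). The erythroid markers summed to 278 to 6272 CPM in precursors and 234736 to 402686 in marrow. The part of this change in composition in the members' differences was not tested. By TPM, 10 of 13 later granule genes and 12 of 12 erythroid genes were lower.

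Within the precursors the 5 genes did not pass the test for G-CSF. With the other factor, ZA, in the model, Mpo differed by −0.21 ± 0.09, Prtn3 by −0.12 ± 0.09, Elane by −0.04 ± 0.12, Ctsg by −0.03 ± 0.08 and Ms4a3 by −0.25 ± 0.12, each with an adjusted p of 1.00. Mpo was at 3449 and 3399 CPM in the 2 libraries without G-CSF and at 2482 to 3407 in the 6 given it, so that 5 of the 6 lay below the pair and the sixth within it. Ms4a3 was at 94.2 and 104 without G-CSF and 71.2 to 102 with it. Prtn3, Elane and Ctsg overlapped between the sets. In this comparison 0% of 18779 genes were called, 3.61% had an unadjusted p under 0.05, and DESeq2 called 30. Of the 5, 1 had an unadjusted p under 0.05 (Mpo) and DESeq2 called 0. The set without G-CSF holds 1 untreated and 1 ZA library.

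Combined treatment against G-CSF alone, with 3 precursor libraries each, likewise gave 0 of the 5 called and 0% of all genes. Mpo was at 3049, 3407 and 2994 CPM with both agents and 2482, 3078 and 2841 with G-CSF, which overlapped (0.17 ± 0.09, adjusted p = 0.736). Ms4a3 was at 71.2, 102 and 86.8 against 72.9, 85.7 and 80.8 (0.12 ± 0.13, adjusted p = 0.873). The other 3 differed by 0.07 to 0.15. Unadjusted, 0 of the 5 and 6.95% of genes had a p under 0.05, and DESeq2 called 0 of the 5 and 91 genes. With TPM values, all 5 differences were negative, −0.23 to −0.11, where the median of all genes was −0.16.

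The G-CSF difference was also set against that in marrow within run 1, where marrow has 1 library a treatment, so that the untreated and G-CSF marrow libraries have no spread of their own and are assumed to vary like the others. By this test 4 of the 5 genes passed, a call that was lost in several other settings. Between the 2 run 1 marrow libraries, untreated and G-CSF, Mpo went from 1134 to 2538 CPM, Prtn3 from 361 to 875, Elane from 447 to 864, Ctsg from 190 to 390 and Ms4a3 from 105 to 187. The precursor difference minus the marrow difference, over 11 run 1 libraries, was −1.20 ± 0.22 for Prtn3 (adjusted p = 0.0272), −1.14 ± 0.24 for Mpo (adjusted p = 0.0435), −1.11 ± 0.23 for Ms4a3 (adjusted p = 0.0443) and −1.02 ± 0.16 for Ctsg (adjusted p = 0.0126). Elane was at −0.77 ± 0.27 (adjusted p = 0.188). Of 19962 genes 2.03% were called and 0.751% were called negative. The G-CSF marrow library is one of those that carry the Eno1b and Vill pattern while no precursor library does. The test was added after seeing the data. Its model has 1 ZA term shared by marrow and precursors, so ZA is assumed to act alike in both. With TPM in limma 0 of the 5 and 4.03% of genes were called, without the untreated or the ZA precursor library 0 were called, and with a replicate block 1 was called.

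Within the set, the balance of the 5 genes differed between marrow and precursors. As a share of their summed TPM, Mpo took 29.0 to 34.7% in the 9 whole marrow libraries and 32.7 to 38.1% in the 8 precursor libraries, and Prtn3 28.4 to 35.6% and 30.0 to 33.9%, which overlapped. Elane took 22.5 to 26.9% in marrow and 17.3 to 20.6% in precursors, Ctsg 7.63 to 9.81% and 11.0 to 12.7%, and Ms4a3 3.16 to 6.35% and 1.88 to 2.28%. For these 3 genes the tissues did not overlap. Within whole marrow Ms4a3 took 5.89 to 6.35% in untreated and 3.16 to 3.74% in combined libraries. These shares are a ratio within a library and are given without a test.

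**Figure D5:**
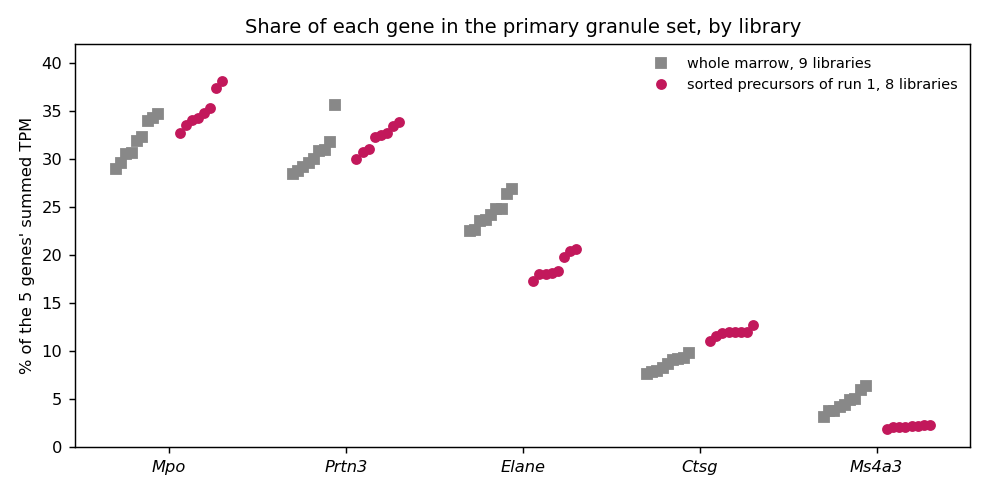
Share of each gene in the summed TPM of the 5 genes (y axis, percent), with 1 point a library sorted by value, squares for 9 whole marrow libraries and circles for 8 run 1 precursor libraries. Elane and Ms4a3 have smaller shares in every precursor library than in any marrow library, and Ctsg has larger ones.

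Together the 5 genes made up 0.0453 and 0.0751% of TPM in untreated marrow, 0.101 and 0.107% with ZA, 0.197 to 0.207% with G-CSF and 0.172 and 0.181% with both. In the precursors they made up 0.189 to 0.383%, the lowest being combined replicate 1, where small RNA took 43.7%. The lowest of the marrow values is untreated replicate 1, the library with the large share of small RNA.

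Genes whose level followed the mean of the 5 most closely over both sets of libraries were named by the lower of their 2 Pearson correlations, over 9 whole marrow and 8 precursor libraries, among 9059 genes. Among them were Srm (0.90 in marrow and 0.88 in precursors), Ssb (0.92 and 0.87), Manf (0.93 and 0.86), Minpp1 (0.86 and 0.91), Gnl3 (0.90 and 0.85), Sfxn1 (0.90 and 0.85) and Nol10 (0.84 and 0.89). The members themselves correlated with their own mean at 0.78 (Ms4a3) to 0.98 (Ctsg) in marrow and at 0.85 (Mpo) to 0.97 (Ms4a3) in precursors. Each member is part of that mean, so its correlation cannot be set against those of the other genes. The libraries share depth, run and treatment, so these values describe these libraries and carry no p.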

How the data were processed

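The deposited tables give, for each Ensembl gene and library, estimated counts and TPM (a level per transcript length). Per the submitters' processing notes the authors used Salmon, DESeq2 1.16.1 and the build mm10, and which tool made the deposited estimated counts and the deposited TPM values is not given in the sources used here. Identifiers were matched to GENCODE vM21 (98.9% of 47729 whole marrow genes and 99.0% of 46679 precursor-table genes).

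Whole-number roundings of the estimated counts went into edgeR 4.0.16 under R 4.3.3, with these settings: TMM scaling, filterByExpr with a minimum count of 10 and a minimum total of 15, robust quasi-likelihood F tests, and Benjamini-Hochberg adjustment over all genes tested, called at an adjusted p under 0.05. Whole marrow was 1 model of 4 groups and 9 libraries. Run 1 precursors were tested for G-CSF with ZA as an additive term, for combined against G-CSF in a model of 4 groups, and against marrow with treatment as a term. Standard errors are the log2 difference divided by the square root of F. The test of the G-CSF difference between tissues was added after seeing the data, and its model has 1 ZA term for both tissues. Alternatives were DESeq2 1.42.0, limma 3.58.1 on log2(TPM + 1) and log2(TPM + 0.1), no filter, protein-coding genes only, a replicate block, other sets of libraries and leaving out each library. The fits were tested on simulated data. Every one of the 5 genes is described, and genes of the lists are named where they passed the test or have a role stated for the 5. The members and lists were chosen with earlier results of these data known. Of the 8 genes named by the highest correlation with the 5, 1 is not reported here.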

Additional observations from a re-analysis of the deposited data

Results flagged for a closer look

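In run 1 the G-CSF difference in precursors was below that in marrow in a model with a term for the difference, by −1.20 for Prtn3, −1.14 for Mpo, −1.11 for Ms4a3 and −1.02 for Ctsg on the log2 scale. The comparison was chosen after seeing the data, and ZA is assumed to act alike in both tissues. The marrow side has 1 library a treatment, so its untreated and G-CSF libraries are assumed to vary like the others. Of the 5 genes, 4 were called, against 0 on the TPM scales, 1 with the replicate block and 0 without the untreated or the ZA precursor library. The G-CSF marrow library carries the Eno1b and Vill pattern described above and no precursor library does, so tissue and genetic background cannot be told apart in this test.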

How the results depend on the processing

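Of the values of single genes under all alternatives, 721 kept their direction and side of the threshold, 40 passed it where they had not, 52 no longer passed and 62 turned direction. The cause was not tested. The count of the 5 genes called for G-CSF against untreated marrow was 4 or 5 under the alternatives that kept all 9 libraries or only the groups compared, and 1 to 4 when 1 library was left out. For both agents against untreated marrow the count of 0 became 1 with DESeq2, 1 with no filter, and 4 and 4 with both TPM pseudocounts. For both agents against G-CSF it became 2 with DESeq2 and 1 with no filter. For G-CSF against ZA it became 2 with DESeq2, 2 with no filter, 1 with only the groups compared, and 0 to 1 with 1 library left out. For the interaction of G-CSF and ZA it became 1 with DESeq2 and 1 with no filter. For precursors against marrow the count of 2 became 4 with DESeq2, 1 with no filter, 4 and 4 on the TPM scales, 4 with protein-coding genes only, 0 with the libraries labelled run 2, and 1 to 4 with 1 library left out. For the difference of the G-CSF effect between tissues the count of 4 became 0 and 0 on the TPM scales and 0 to 5 with 1 library left out. It was 0 without untreated precursor replicate 2 or ZA precursor replicate 3, 1 without untreated marrow replicate 2 or G-CSF precursor replicate 1, and 2 without G-CSF precursor replicate 2 or 3 or combined precursor replicate 3. In both precursor treatment comparisons it was 0 under every alternative run.

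Same-numbered libraries showed correlations of their deviations of −0.04 to 0.11 in whole marrow and −0.03 to −0.01 in run 1 precursors. In a group of 2 libraries the deviations mirror each other, so this check cannot decide whether the numbers pair the samples. Between marrow and precursors no such check could be made, because marrow has 1 library a treatment there. With the replicate block the count for G-CSF against untreated marrow was 4, for precursors against marrow 0 and for the difference between tissues 1. The block also turned Ms4a3 for ZA against untreated to 0.0642, Mpo and Ctsg for both agents against ZA to −0.0649 and −0.0465, and Elane and Ctsg for G-CSF in precursors to 0.0217 and 0.018.

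On the TPM scales, with pseudocounts 1 and 0.1, these turned direction: Ms4a3 for ZA (0.39 and 0.40) and both agents (0.75 and 0.77) against untreated; Elane (0.72 and 0.72), Prtn3 (0.73 and 0.73) and Ms4a3 (0.36 and 0.36) for both agents against ZA; Ms4a3 for precursors against marrow (0.25 and 0.25). For both agents against G-CSF in precursors they were Mpo (−0.11 and −0.11), Elane (−0.23 and −0.23), Prtn3 (−0.20 and −0.20), Ctsg (−0.13 and −0.13) and Ms4a3 (−0.17 and −0.17). For both agents against ZA, Elane was 0.0008 with no filter, and Prtn3 was 0.0098 with DESeq2, 0.0206 with no filter and 0.0169 with only the groups compared. Another set was the 17 precursor libraries labelled for the final comparison, drawn from both runs and fitted with a run term. There, G-CSF in precursors gave Mpo 0.12, Prtn3 0.12 and Ctsg 0.36, and both agents against G-CSF gave Elane −0.0085. With the 15 libraries labelled run 2, G-CSF gave Mpo 0.50, Elane 0.0826, Prtn3 0.45 and Ctsg 0.70, and both agents against G-CSF gave Elane −0.21, Prtn3 −0.0526 and Ms4a3 −0.31. For precursors against marrow the libraries labelled run 2 gave Mpo −0.35, Elane −0.066, Prtn3 −0.20, Ctsg −0.35 and Ms4a3 0.14.

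Leaving out 1 library turned direction for ZA against untreated in Ms4a3 (−0.33 to 0.24) and Ctsg (−0.0205 to 0.32), for both agents against ZA in Elane (−0.14 to 0.0829) and Prtn3 (−0.14 to 0.11), and for G-CSF in precursors in Elane (−0.13 to 0.0086) and Ctsg (−0.0909 to 0.0314). It did so for both agents against G-CSF in precursors in Elane (−0.10 to 0.18) and Ms4a3 (−0.0134 to 0.24), and for precursors against marrow in Elane (−0.10 to 0.45).

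Counts over all genes that moved by more than 1.5 times follow. In marrow, G-CSF against untreated (1746 with edgeR) gave 3206 with no filter and 3106 and 3503 on the TPM scales. ZA against untreated (5) gave 129 with DESeq2, 634 with no filter, 16 and 37 on the TPM scales, 2 with protein-coding genes, 2 with only the groups compared and 0 with the replicate block. Both agents against untreated (1137) gave 1758 with DESeq2, 2540 with no filter, 6110 and 6014 on the TPM scales, 748 with only the groups compared and 481 with the block. Both against G-CSF (1) gave 207 with DESeq2, 557 with no filter, 39 and 35 on the TPM scales, 6 with protein-coding genes, 5 with only the groups compared and 0 with the block. Both against ZA (638) gave 1024 with DESeq2, 1587 with no filter, 421 with protein-coding genes and 387 with the block. G-CSF against ZA (746) gave 1135 with DESeq2, 1732 with no filter, 455 with a TPM pseudocount of 1 and 488 with protein-coding genes. The interaction (1) gave 257 with DESeq2, 746 with no filter, 14 and 14 on the TPM scales and 3 with the block. In precursors G-CSF (0) gave 30 with DESeq2, 1 with no filter and 5 with a TPM pseudocount of 1. It gave 21 with the 17 libraries of the final comparison and 32 with the libraries labelled run 2. Both agents against G-CSF in precursors (0) gave 91 with DESeq2, 1 with no filter and 3 with a TPM pseudocount of 0.1. Precursors against marrow (7797) gave 3298 with the block and 0 with the libraries labelled run 2. The difference between tissues (406) gave 1412 with DESeq2, 805 with a TPM pseudocount of 1 and 173 with the block. Leaving out 1 library gave 836 to 1706 genes for G-CSF and 296 to 1353 for both agents against untreated, 328 to 836 for G-CSF and 251 to 713 for both agents against ZA, 113 to 1441 for the difference between tissues, 0 to 23 for ZA against untreated, 0 to 18 for both agents against G-CSF and 0 to 10 for the interaction. A library left out can leave an arm with 1 sample, which is then assumed to vary like the other groups. All 5 genes had at least 497 estimated counts in each whole marrow library.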
